A study of Mus musculus with 8 samples.

Results

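The actin and myosin cytoskeleton genes described here are a list of 41 mouse genes: actins, myosin heavy chains, regulators of the thin filament, proteins that turn filaments over, and proteins that crosslink filaments or tie them to membranes and junctions. Members were found as the probes that carry the listed gene's name in the scanner files, which gave 37 of the 41, among 27961 gene names on the array. All 37 were among the 19181 genes tested, and each was well above background on all 8 arrays and saturated on none. Plec, Sptbn1 and Ezr were present only under older names (Plec1, Spnb2 and Vil2) and are given apart from the counts, and Actg1 was not analysed here. The list was drawn up around Dbn1 and Myh14 and chosen by the signal in mock IP relative to input, so that difference is described without a test.

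Actin filaments are polymers of actin monomers that grow and shrink at their ends. Cofilins, profilins, gelsolin, villin and capping protein govern that turnover, tropomyosins and calponins lie along the filament, and filamins, alpha-actinins, drebrin and talin join filaments to each other or to the membrane. Myosins are motors that walk along or contract these filaments; nonmuscle myosin II forms the contractile bundles of the cell cortex and the cleavage furrow, and primordial germ cells use this machinery to migrate and divide.

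RNA was measured on one-colour arrays, 1 per sample, in 4 groups of 2: total input RNA without antibody, a mock immunoprecipitation (IP) with normal mouse IgG, an anti-V5 IP, and an anti-GFP IP, the last 2 being the DAZL IPs. All groups came from in vitro primordial germ cells, derived from embryonic stem cells of the mouse line V6.5 (strain C57BL/6 129SV mixed) that expressed a fusion of GFP and V5 with DAZL, which binds RNA in germ cells. Feeder cells had been removed, differentiation ran for 12 days, and the lysates were not crosslinked. No group lacked the tagged protein, and no group is a cell sort according to the labels; the mock IP is thus a control for the antibody and not for the tag. The labels do not say whether replicates were separate cultures; p-values then measure only how far these arrays spread, and that spread may be technical.

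The mock 1 array was dimmer than the rest. Its 75th percentile of intensity was 352, against 767 on mock 2 and 641 to 1130 on the other arrays, and between 61.3% and 70.5% of probes were well above background. Of 12 listed germ cell markers, the 10 tested were well above background on both arrays of every group. Marker genes of smooth and cardiac muscle (9 of 9 in input, mock IP and anti-V5 IP, 8 of 9 in anti-GFP IP) and of fibroblasts (6 of 6 in every group) were also well above background. In such bulk samples, fewer cells of a type and less RNA per cell cannot be told apart. Levels below are log2 intensities minus the array's own 75th percentile, so they describe the make-up of each RNA sample and not how much RNA was recovered.

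By the chosen probes, nonmuscle myosin II, some other myosins and several crosslinkers lay far above input in mock IP. The tropomyosins, caldesmon and calponin 3 did not. Of the 37 members, 16 were at least 2-fold higher in mock IP than in input, where 10.7% of all tested genes were, and 1 was at least 2-fold lower, where 9.25% of all were. The median difference of the members was 0.74 on the log2 scale, beside 0.20 for all tested genes. Both mock arrays lay above both input arrays for 24 members (40.8% of all genes) and below both for 6 (26.4% of all genes). Since the members were chosen with this difference in view, nothing is read from these shares.

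**Figure D1:**
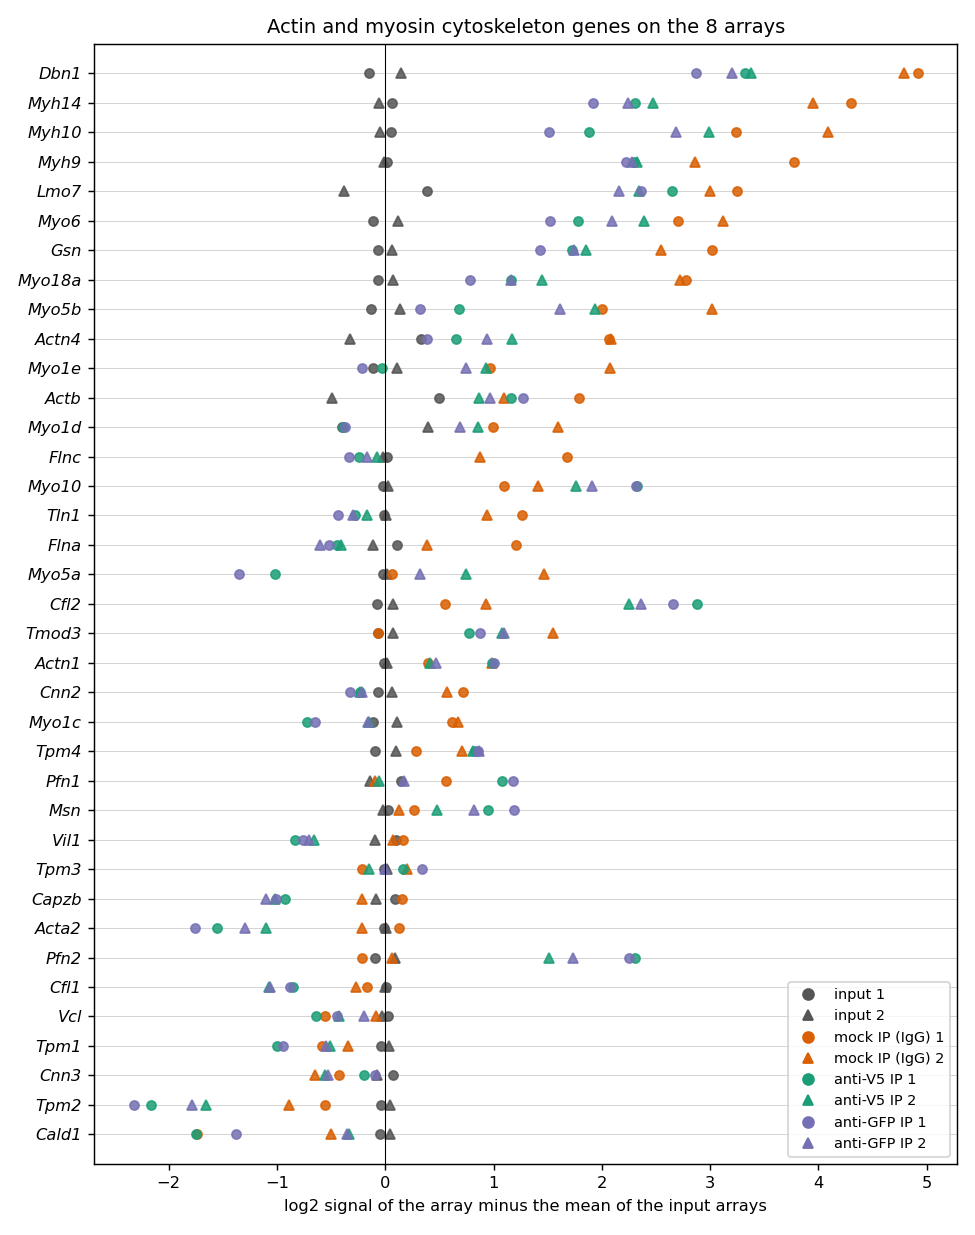
Scaled log2 signal of the 37 members on each array, minus the mean of the 2 input arrays (x axis, log2); circles are slide 1, triangles slide 2, and colours are groups. Dbn1 and Myh14 stand at the top, with mock IP farthest to the right and both DAZL IPs between mock IP and input, whereas Cfl2 and Pfn2 have both DAZL IPs farthest to the right.

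Dbn1 encodes drebrin, which binds along the side of actin filaments and is best known from dendritic spines. Its level was 0.04 and 0.33 on the input arrays, 5.10 and 4.97 in mock IP, 3.50 and 3.56 in anti-V5 IP, and 3.06 and 3.39 in anti-GFP IP. No 2 of the 4 groups overlapped, and anti-V5 IP and anti-GFP IP lay closest to each other. The mock IP mean was 28.9-fold above the input mean (log2 4.85), the second largest difference among all 19181 genes.

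Myh14 encodes the heavy chain of nonmuscle myosin IIC. Its level was 1.71 and 1.59 in input, 5.95 and 5.60 in mock IP, 3.96 and 4.12 in anti-V5 IP, and 3.57 and 3.89 in anti-GFP IP. This is the same order as for Dbn1, with input lowest, mock IP highest and both DAZL IPs in between. The mock IP mean was 17.4-fold above input (log2 4.12), rank 8 of all genes, and a second Myh14 probe, well above background on 4 arrays, lay 3.82 above input.

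The other nonmuscle myosin II heavy chains, Myh9 (IIA) and Myh10 (IIB), had the same order of groups. Myh10 read 1.01 and 0.91 in input, 4.20 and 5.04 in mock IP, 2.84 and 3.95 in anti-V5 IP, and 2.47 and 3.64 in anti-GFP IP. Slide 2 was higher than slide 1 in each of the 3 IP groups, by more than the gap between anti-V5 IP and anti-GFP IP. For Myh9 the levels were 5.89 and 5.86 in input, 9.65 and 8.74 in mock IP, 8.17 and 8.19 in anti-V5 IP, and 8.09 and 8.16 in anti-GFP IP. All 3 heavy chains were at least 2-fold above input in mock IP, with differences of 3.32 (Myh9), 3.66 (Myh10) and 4.12 (Myh14) and a median of 3.66. Myh9 depends on the probe: its other probe, well above background on 4 arrays, lay only 0.27 above input in mock IP, whereas the other Myh10 probe lay 3.34 above.

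Among the 8 other myosins, which carry cargo, tether membranes or reach into filopodia, 6 were at least 2-fold above input in mock IP, and the median difference was 1.41. Myo6, the motor that moves toward the minus end of filaments, was at 0.70 and 0.93 in input, 3.51 and 3.93 in mock IP, 2.59 and 3.20 in anti-V5 IP, and 2.33 and 2.91 in anti-GFP IP. Myo18a, an unconventional myosin that binds actin, was at 0.88 and 1.02 in input, 3.73 and 3.67 in mock IP, 2.11 and 2.39 in anti-V5 IP, and 1.73 and 2.11 in anti-GFP IP. For both genes every mock array lay above every DAZL IP array, and these above every input array. Myo5b, a vesicle motor, lay 2.51 above input in mock IP, and the class I myosins Myo1e and Myo1d lay 1.52 and 1.29 above it. A second Myo1d probe, well above background on 4 arrays, lay at -0.12. Myo10, the filopodial myosin, lay 1.25 above input, and Myo1c and Myo5a lay within 2-fold of it, at 0.64 and 0.77. Myo5a lay 0.09 above input on slide 1 and 1.45 above on slide 2.

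Of the 9 crosslinkers and linkers, 5 were at least 2-fold above input in mock IP and the median difference was 1.10. Lmo7, a junction protein that binds alpha-actinin and afadin, read 0.58 and -0.18 in input, 3.45 and 3.20 in mock IP, 2.85 and 2.55 in anti-V5 IP, and 2.56 and 2.36 in anti-GFP IP. Its mock IP mean lay 3.12 above input, and its other probe 2.67 above. Actn4, a nonmuscle alpha-actinin, lay 2.08 above input, against 0.69 for its paralog Actn1. The filamins Flnc and Flna lay 1.28 and 0.80 above input and talin 1 (Tln1) 1.10 above. Moesin (Msn), which ties filaments to the membrane, lay at 0.19 by the chosen probe and at -0.64 and -0.60 by its other kept probes. By the chosen probes, vinculin (Vcl) was the 1 member of the class below input, at -0.32.

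The 3 genes found under older names are all of this class. Sptbn1, a beta spectrin of the membrane skeleton, lay 2.35 above input in mock IP (rank 67 of all genes), and its 3 other kept probes lay 1.66, 2.34 and 2.76 above. Plec, the linker of intermediate filaments, lay 0.88 above input by the brightest probe and 1.16, 2.91 and 3.02 above by the others. Ezr, a relative of moesin, lay at -0.14.

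Actb, a cytoplasmic actin, lay 1.44 above input in mock IP, with 1.48 and 0.49 in input and 2.78 and 2.08 in mock IP, and 0.76 above by its other probe. Acta2, smooth muscle actin, lay at -0.05 by the chosen probe, with arrays of both groups overlapping. Its other kept probes lay at -0.41, -0.70 and 0.71. Actins are close in sequence, so signal from another actin on these probes cannot be told apart from their own.

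Among the 7 genes of filament turnover, 1 lay at least 2-fold above input in mock IP and the median difference was 0.12. That gene was Gsn, the severing protein gelsolin, with 5.92 and 6.04 in input, 9.00 and 8.53 in mock IP, 7.70 and 7.83 in anti-V5 IP, and 7.41 and 7.72 in anti-GFP IP. It had the order of groups of Dbn1 and the myosins, and its mock IP mean was 6.88-fold above input. The cofilins, profilins, villin and Capzb lay between -0.22 and 0.74 in the same difference by the chosen probes. The other Cfl1 and Capzb probes lay at -0.63 and 0.89. Vil1 is uncertain because its other probe lay at -2.16.

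The 8 thin filament regulators had the lowest class median of mock IP relative to input, -0.24: none was 2-fold higher and Cald1 was 2-fold lower, while Tmod3, Cnn2 and Tpm4 lay at 0.74, 0.64 and 0.50. The other kept Cald1 probe lay at -0.88, within 2-fold. Tpm3 lay at -0.007 by the chosen probe and at -1.02 by its other. Cald1 (caldesmon, which inhibits myosin on the filament) read -0.68 and -0.59 in input, -2.38 and -1.14 in mock IP, -2.39 and -0.97 in anti-V5 IP, and -2.02 and -0.99 in anti-GFP IP. Its low values on slide 1 in all 3 IP groups set the size of the difference, which was -1.69 on slide 1 and -0.54 on slide 2. Tpm2, the tropomyosin common in muscle, read 3.93 and 4.00 in input, 3.41 and 3.08 in mock IP, 1.80 and 2.31 in anti-V5 IP, and 1.64 and 2.18 in anti-GFP IP. Both DAZL IPs lay below mock IP for Tpm2, and mock IP below input. Tpm1 read 4.91 and 4.98 in input, 4.36 and 4.59 in mock IP, 3.95 and 4.43 in anti-V5 IP, and 3.99 and 4.39 in anti-GFP IP. Cnn3, a calponin, read 4.78 and 4.64 in input, 4.28 and 4.06 in mock IP, 4.51 and 4.15 in anti-V5 IP, and 4.61 and 4.18 in anti-GFP IP. For these 2 genes input was highest and the IP groups overlapped. Vcl read 1.15 and 1.09 in input, 0.57 and 1.03 in mock IP, 0.48 and 0.70 in anti-V5 IP, and 0.67 and 0.92 in anti-GFP IP, and here too the IP groups overlapped.

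Genes of the wider cytoskeleton are described beside these classes. Since the members were chosen by this difference, nothing is read from the gap between them and these lists. Of 41 other actin genes tested (Arp2/3 subunits, WAVE complex, formins, kinases, myosin light chains and others), 4 lay at least 2-fold above and 7 at least 2-fold below input in mock IP, with a median of 0.07. The highest of them were Cttn (cortactin) at 2.17 and Ssh2 (a cofilin phosphatase) at 1.98, and the lowest were the kinases Rock1 at -3.61 and Rock2 at -1.98. The myosin light chains Myl6 and Myl9 lay at 0.25 and 0.16. None of 18 intermediate filament and junction genes lay 2-fold from input (median 0.32). Of 23 microtubule genes 1 lay 2-fold above and 4 below (median -0.24). The gene above was Dync1h1, the heavy chain of the dynein motor, at 1.84 and at 0.61 without mock 1. Rock1 and Rock2 lay at -2.41 and -0.79 without mock 1.

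**Figure D2:**
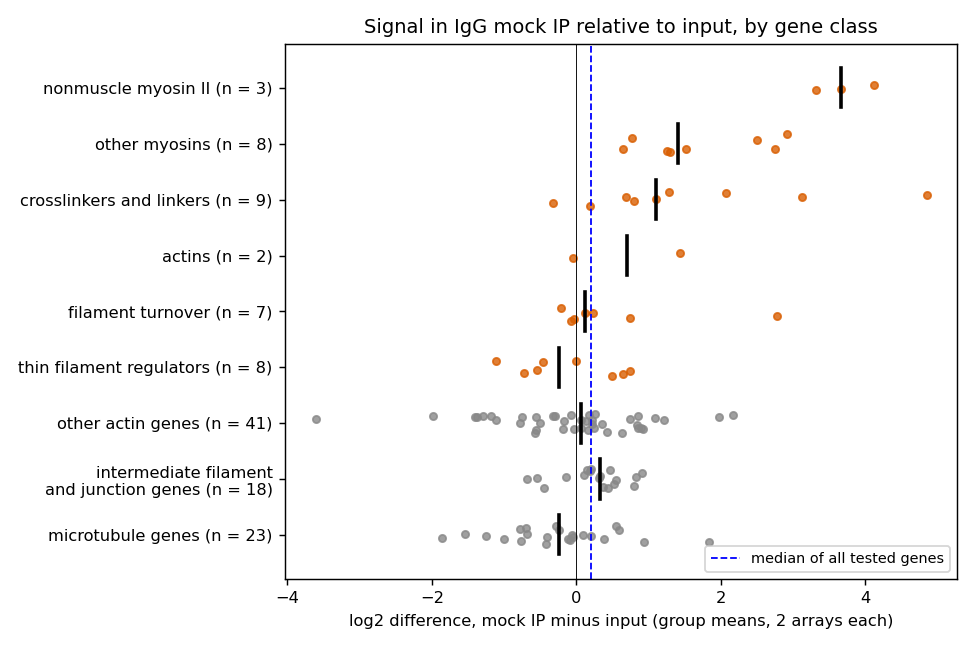
Difference of group means between mock IP and input (x axis, log2) for each gene, with classes of members in orange and comparison lists in grey; black bars are class medians and the dashed line is the median of all tested genes, 0.20. The 3 nonmuscle myosin II genes lie between 3.32 and 4.12, and the 8 thin filament regulators between -1.12 and 0.74.

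The order of the classes was the same on both slides at its ends. The median of the nonmuscle myosin II genes was 3.76 on slide 1 and 4.01 on slide 2, that of the other myosins 1.25 and 1.70, and that of the thin filament regulators -0.35 and -0.10. On slide 1, 17 members lay at least 2-fold above input in mock IP (19.3% of all genes), and on slide 2, 16 did (7.40% of all genes). Without mock 1, Myo5a and Tmod3 lay more than 2-fold above input (1.47 and 1.55), while Flnc, Tln1 and Cald1 lay within 2-fold of it (0.87, 0.94 and -0.50). Without mock 2, Flna lay more than 2-fold above (1.20), while Myo1d and Myo1e lay within 2-fold (0.99 and 0.97). Relative to the median of all genes, the myosins taken as 1 class of 11 lay between 1.63 and 2.44 above it under the 7 other processing settings that keep all arrays. The thin filament regulators lay between -0.62 and 0.11, above 0 only with normexp background correction.

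The DAZL IPs were then compared with mock IP, the comparison that corrects for RNA recovered without a tag antibody. These tests share the mock arrays with the difference described above, so a lower call for a gene chosen for high signal in mock IP is not independent of that choice. In anti-V5 IP, 2 of 37 members were called higher and 16 lower, where 14.6% and 21.2% of all genes were (limma, Benjamini-Hochberg adjusted p under 0.05). In anti-GFP IP, 4 were called higher and 18 lower, where 16.4% and 26.3% of all genes were. The median log2 difference of the members was -0.87 in anti-V5 IP and -1.02 in anti-GFP IP, beside -0.44 and -0.43 for all genes. The 16 genes lower in anti-V5 IP were among the 18 lower in anti-GFP IP, and the 2 higher ones, Pfn2 and Cfl2, were shared; the IPs share the mock arrays.

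The members lower in the DAZL IPs than in mock IP were of 2 kinds. For 8 of the 18 in anti-GFP IP (Dbn1, Myh9, Myh10, Myh14, Myo6, Myo18a, Gsn and Actn4) both DAZL IPs still lay above input. For the other 10 (Acta2, Myo1c, Tpm2, Cnn2, Cfl1, Vil1, Capzb, Flna, Flnc and Tln1) both DAZL IPs were the lowest groups by the chosen probe. Most of the 18 calls were lost in at least 1 alternative. Among the first kind, the Myo6 call was lost in most alternatives and the Gsn call with quantile normalization (limma adjusted p = 0.186). The Actn4 call was lost without mock 1 and without anti-GFP IP 1. Input, then both DAZL IPs, then mock IP was the order of means for 13 members, 35.1% of the 37, and for 14.0% of all genes; this order contains the difference that chose the members. The 13 were Actb, Myh9, Myh10, Myh14, Myo6, Myo18a, Myo1d, Myo1e, Myo5b, Gsn, Dbn1, Lmo7 and Actn4. With averaged probes 11 members had this order. For Myh9, Myo1d and Myo1e another kept probe lay below input in both DAZL IPs.

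Myh14 was 3.32-fold lower in anti-V5 IP than in mock IP (log2 difference -1.73 ± 0.25 SE, adjusted p = 0.00460) and 4.13-fold lower in anti-GFP IP (-2.05 ± 0.25, adjusted p = 0.00254). Dbn1 was 2.84-fold lower in anti-V5 IP (-1.51 ± 0.24, adjusted p = 0.00674) and 3.52-fold lower in anti-GFP IP (-1.81 ± 0.24, adjusted p = 0.00315). These calls held under every alternative setting run and without any single array, with adjusted p up to 0.0460 for Dbn1 in anti-V5 IP without anti-V5 IP 1. They were the 2 of 16 lower calls in anti-V5 IP that did so. Myo18a was 2.72-fold lower in anti-V5 IP (-1.45 ± 0.24, adjusted p = 0.00826, 0.0622 without anti-V5 IP 1) and 3.43-fold lower in anti-GFP IP (-1.78 ± 0.24, adjusted p = 0.00354).

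Myh10 was lower in anti-GFP IP (-1.57 ± 0.51 SE, adjusted p = 0.0426) and not called in anti-V5 IP (-1.22 ± 0.51, adjusted p = 0.0946). The anti-V5 IP difference was called with the slide as a replicate block (adjusted p = 0.0146), and the anti-GFP IP call was lost in most alternatives, up to an adjusted p of 0.208 without anti-GFP IP 1. Myh9 was lower in both IPs (-1.01 ± 0.32, adjusted p = 0.0423, and -1.07 ± 0.32, adjusted p = 0.0306). Most alternatives ended both Myh9 calls, with adjusted p up to 0.284 and 0.255 under quantile normalization, where the differences were -0.38 and -0.40.

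Flnc and Tln1 were lower in both DAZL IPs than in mock IP. Flnc, the filamin typical of muscle, read 1.59 and 1.56 in input, 3.25 and 2.45 in mock IP, 1.34 and 1.50 in anti-V5 IP, and 1.25 and 1.41 in anti-GFP IP. By the chosen probe both DAZL IPs lay slightly below input, and only mock IP stood out. The other kept Flnc probes lay at -0.20 and -0.27, and at 0.32 and 0.11, from input in anti-V5 IP and anti-GFP IP. Flnc was 2.70-fold lower in anti-V5 IP (-1.43 ± 0.30 SE, adjusted p = 0.0173, 0.0907 without anti-V5 IP 1, and not called without mock 1) and 2.88-fold lower in anti-GFP IP (-1.52 ± 0.30, adjusted p = 0.0108, 0.0674 without anti-GFP IP 1). Tln1, which couples integrins to actin, read 1.26 and 1.28 in input, 2.53 and 2.20 in mock IP, 0.99 and 1.10 in anti-V5 IP, and 0.83 and 0.97 in anti-GFP IP. It had the same pattern, with mock IP above all other arrays. Tln1 was 2.50-fold lower in anti-V5 IP (-1.32 ± 0.23, adjusted p = 0.00914, 0.0650 without anti-V5 IP 1) and 2.76-fold lower in anti-GFP IP (-1.46 ± 0.23, adjusted p = 0.00541), and its 2 other probes lay between -1.25 and -1.43.

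Pfn2 and Cfl2 were the members with the largest rise in the DAZL IPs. Pfn2 encodes profilin 2, which delivers actin monomers to growing filaments. It read 1.05 and 1.24 in input, 0.93 and 1.21 in mock IP, 3.45 and 2.66 in anti-V5 IP, and 3.40 and 2.88 in anti-GFP IP, so the 4 DAZL IP arrays lay above the 4 others. Pfn2 was 3.96-fold higher in anti-V5 IP than in mock IP (log2 difference 1.99 ± 0.33 SE, adjusted p = 0.00788) and 4.20-fold higher in anti-GFP IP (2.07 ± 0.33, adjusted p = 0.00577). Its second probe lay 1.94 and 2.15 above mock IP.

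Cfl2 encodes cofilin 2, the muscle-type member of a family that severs old filaments. It read -0.10 and 0.04 in input, 0.52 and 0.90 in mock IP, 2.85 and 2.22 in anti-V5 IP, and 2.62 and 2.32 in anti-GFP IP. Here too no DAZL IP array overlapped another group. Cfl2 was 3.54-fold higher in anti-V5 IP (1.82 ± 0.29 SE, adjusted p = 0.00697) and 3.40-fold higher in anti-GFP IP (1.76 ± 0.29, adjusted p = 0.00653). In anti-V5 IP both rises missed the threshold without mock 1 (adjusted p = 0.0634 for Pfn2 and 0.0541 for Cfl2); in anti-GFP IP both were called in every alternative.

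The paralogs of these genes read differently. Cfl1, the cofilin of most nonmuscle cells, was at 3.87 and 3.86 in input, 3.70 and 3.60 in mock IP, 3.01 and 2.79 in anti-V5 IP, and 2.99 and 2.79 in anti-GFP IP. It was lower than mock IP in anti-V5 IP (-0.74 ± 0.22 SE, adjusted p = 0.0384) and anti-GFP IP (-0.76 ± 0.22, adjusted p = 0.0311), opposite in sign to Cfl2. Most alternatives ended these Cfl1 calls, with adjusted p up to 0.203 in anti-V5 IP with normexp. Pfn1 was not called in either IP (0.28 ± 0.48, adjusted p = 0.656, and 0.44 ± 0.48, adjusted p = 0.475), with large gaps between the slides. The difference between paralogs was not itself tested.

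**Figure D3:**
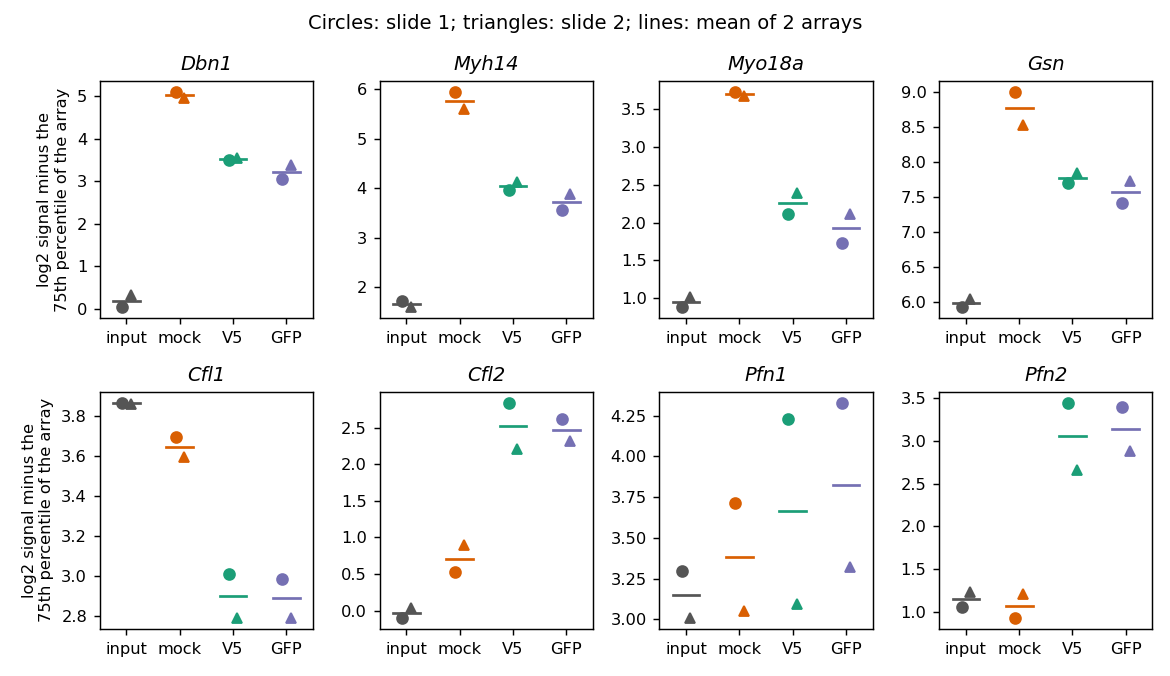
Scaled log2 signal (y axis, its range set for each gene) of 8 members on each array, with circles for slide 1, triangles for slide 2 and a line at the mean of 2 arrays. Dbn1, Myh14, Myo18a and Gsn are highest in mock IP and lowest in input, Cfl2 and Pfn2 are highest in anti-V5 IP and anti-GFP IP, Cfl1 is lowest in them, and Pfn1 overlaps between groups.

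In anti-GFP IP, Myo10 and Msn were also called higher than in mock IP. Myo10 read -0.41 and -0.37 in input, 0.71 and 1.02 in mock IP, 1.93 and 1.37 in anti-V5 IP, and 1.92 and 1.52 in anti-GFP IP, a rise from input to mock IP to both DAZL IPs. Its difference from mock IP was 0.85 ± 0.29 SE in anti-GFP IP (adjusted p = 0.0459) and 0.79 ± 0.29 in anti-V5 IP (adjusted p = 0.0647). Msn read -1.88 and -1.93 in input, -1.64 and -1.78 in mock IP, -0.95 and -1.42 in anti-V5 IP, and -0.71 and -1.09 in anti-GFP IP. Its difference was 0.81 ± 0.26 in anti-GFP IP (adjusted p = 0.0411) and 0.52 ± 0.26 in anti-V5 IP (adjusted p = 0.149). Both calls were lost without most single arrays, with adjusted p up to 0.231 for Myo10 without anti-GFP IP 1 and 0.292 for Msn with normexp. Among the genes under older names, Ezr was called higher in anti-GFP IP (0.84 ± 0.28, adjusted p = 0.0465) and not in anti-V5 IP (adjusted p = 0.0712), and Plec and Sptbn1 were called lower in both.

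By class, lower calls against mock IP in anti-V5 IP and anti-GFP IP numbered 2 and 3 of 3 nonmuscle myosin II genes, 2 and 3 of 8 other myosins, 5 and 5 of 9 crosslinkers and linkers, 1 and 1 of 2 actins, 4 and 4 of 7 turnover genes, and 2 and 2 of 8 thin filament regulators. Over all genes the lower calls were 21.2% and 26.3%. The share of the thin filament regulators, 25% in each IP, was near that of all genes. So was that of the other myosins in anti-V5 IP, also 25%. Of the 41 other actin genes, 11 were called higher and 6 lower in anti-V5 IP (14.6% and 21.2% of all genes), and 11 higher and 8 lower in anti-GFP IP (16.4% and 26.3%). Their largest rise was Wasf1, a WAVE complex subunit, 2.90 and 3.16 above mock IP, followed by Add3 (adducin 3) at 2.07 and 2.25.

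**Figure D4:**
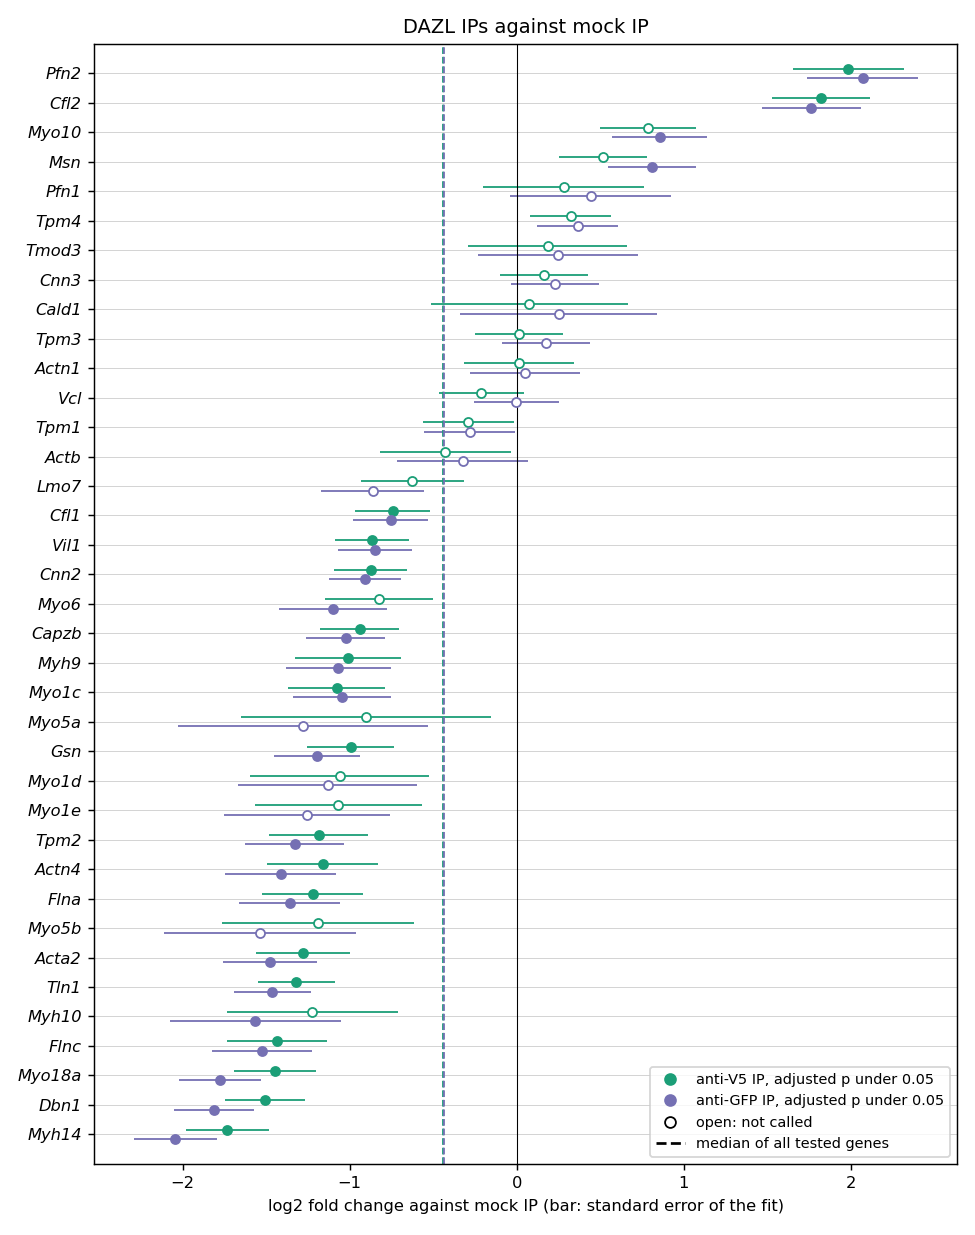
Log2 difference of each member from mock IP (x axis) in anti-V5 IP (green) and anti-GFP IP (purple), with bars for the standard error of the fit; filled points have an adjusted p under 0.05 and the dashed line marks the median of all genes, about -0.44. Pfn2 and Cfl2 are farthest to the right, and Myh14 and Dbn1 are farthest to the left.

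These counts rest on few arrays. Without mock 1, anti-V5 IP had 0 higher and 4 lower calls (5.64% and 0.433% of all genes) and anti-GFP IP 2 and 6 (9.06% and 5.46%). Lower calls in anti-V5 IP were 2 without anti-V5 IP 1 (0.287% of all genes), 10 without anti-V5 IP 2 (10.3%), and 5 without either input array (2.18% in each case). Lower calls in anti-GFP IP were 4 without anti-GFP IP 1 (0.735%), and 12 without either input array (15.7% in each case). Calls thus fell over all genes as well as among the members. Of 34 other kept probes of the members, 33 had the sign of the chosen probe in each IP against mock IP, 24 (anti-V5 IP) and 25 (anti-GFP IP) had it against input, and 28 had it in mock IP against input.

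Against input, the question is which members' RNA was over-represented in the DAZL IPs relative to the cells' total RNA, with no correction for what the mock IP recovers. In anti-V5 IP 12 of 37 members were called higher and 5 lower, where 14.1% and 13.6% of all genes were. In anti-GFP IP 13 were called higher and 5 lower, where 16% and 16.7% of all genes were. The share of lower calls was near that of all genes. The median difference was 0.51 in anti-V5 IP and 0.66 in anti-GFP IP, beside -0.11 for all genes in both, and all 12 higher and all 5 lower calls in anti-V5 IP were also made in anti-GFP IP. Without input 1, higher calls were 8 in each IP (4.74% of all genes in anti-V5 IP and 6.45% in anti-GFP IP) and lower calls 1 (1.53% and 3.13%). Without input 2 they were 9 (5.28% and 6.95%) and 1 (2.17% and 3.84%). Lower calls were also 1 in anti-V5 IP without anti-V5 IP 1 (2.96%), 2 without anti-V5 IP 2 (12.2%), 1 in anti-GFP IP without anti-GFP IP 1 (4.50%) and 2 without anti-GFP IP 2 (12.7%).

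Of the members called higher than input in both IPs, 8 (Myh9, Myh10, Myh14, Myo6, Myo18a, Gsn, Dbn1 and Lmo7) lay higher still in mock IP, and 4 (Myo10, Tpm4, Cfl2 and Pfn2) lay lower in mock IP than in the DAZL IPs. Tpm4 lay only 0.32 and 0.36 above mock IP in anti-V5 IP and anti-GFP IP and was not called there. Its calls against input were lost in several alternatives (limma adjusted p = 0.336 and 0.304 with quantile normalization). Dbn1 was 10.2-fold above input in anti-V5 IP (log2 difference 3.35 ± 0.24 SE, adjusted p = 0.00208) and 8.22-fold in anti-GFP IP (3.04 ± 0.24, adjusted p = 0.00181). Lmo7 was 5.65-fold above input in anti-V5 IP (2.50 ± 0.31, adjusted p = 0.00256) and 4.79-fold in anti-GFP IP (2.26 ± 0.31, adjusted p = 0.00285). Against mock IP, Lmo7 was not called (-0.63 ± 0.31, adjusted p = 0.140, and -0.86 ± 0.31, adjusted p = 0.0554).

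The 3 nonmuscle myosin II genes were each above input in both IPs. Myh14 was 5.25-fold above in anti-V5 IP (2.39 ± 0.25 SE, adjusted p = 0.00208) and 4.22-fold in anti-GFP IP (2.08 ± 0.25, adjusted p = 0.00213). Myh10 was 5.42-fold above in anti-V5 IP (2.44 ± 0.51, adjusted p = 0.0134, 0.0778 without input 2) and 4.28-fold in anti-GFP IP (2.10 ± 0.51, adjusted p = 0.0191, 0.0933 without input 2). Myh9 was 4.95-fold above in anti-V5 IP (2.31 ± 0.32, adjusted p = 0.00328) and 4.76-fold in anti-GFP IP (2.25 ± 0.32, adjusted p = 0.00300). The other Myh9 probe lay below input, at -0.84 and -0.74, and with the mean of its probes neither Myh9 difference was called (adjusted p = 0.310 and 0.281).

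Cfl2 was 5.91-fold above input in anti-V5 IP (2.56 ± 0.29 SE, adjusted p = 0.00230) and 5.68-fold in anti-GFP IP (2.51 ± 0.29, adjusted p = 0.00209). Myo10 was 4.11-fold above in anti-V5 IP (2.04 ± 0.29, adjusted p = 0.00358) and 4.31-fold in anti-GFP IP (2.11 ± 0.29, adjusted p = 0.00285). Pfn2 was 3.75-fold and 3.98-fold above input. These 3 genes were above input in the DAZL IPs by more than mock IP was, where Cfl2, Myo10 and Pfn2 lay at 0.74, 1.25 and -0.08.

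The 5 members called lower than input in both IPs were Tpm2, Acta2, Capzb, Cfl1 and Vil1. Tpm2 was 3.75-fold lower in anti-V5 IP (-1.91 ± 0.30 SE, adjusted p = 0.00484) and 4.15-fold lower in anti-GFP IP (-2.05 ± 0.30, adjusted p = 0.00330), the 1 of these 5 whose calls held in every alternative. Acta2 read 3.41 and 3.43 in input, 3.55 and 3.21 in mock IP, 1.87 and 2.32 in anti-V5 IP, and 1.67 and 2.13 in anti-GFP IP. Input and mock IP overlapped and all 4 DAZL IP arrays lay below them: Acta2 was 2.51-fold below input in anti-V5 IP (-1.33 ± 0.28, adjusted p = 0.0136, 0.0925 without input 1) and 2.88-fold in anti-GFP IP (-1.53 ± 0.28, adjusted p = 0.00699, 0.0567 without input 1). The other kept Acta2 probes lay at -0.76 and -0.59, at -1.30 and -1.42, and at 0.14 and -0.17 from input in anti-V5 IP and anti-GFP IP.

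Capzb, the beta subunit that caps filament ends, read 5.35 and 5.18 in input, 5.41 and 5.04 in mock IP, 4.34 and 4.24 in anti-V5 IP, and 4.25 and 4.16 in anti-GFP IP. It had the pattern of Acta2, with differences from input of -0.97 ± 0.24 SE (adjusted p = 0.0218) and -1.06 ± 0.24 (adjusted p = 0.0138); its other probe lay at 0.12 and -0.10, and the calls were lost without either input array. Cfl1 was below input by -0.96 ± 0.22 (adjusted p = 0.0190) and -0.97 ± 0.22 (adjusted p = 0.0153). Vil1, villin of microvilli, read -0.87 and -1.06 in input, -0.80 and -0.90 in mock IP, -1.80 and -1.63 in anti-V5 IP, and -1.72 and -1.67 in anti-GFP IP, with differences from input of -0.75 ± 0.22 (adjusted p = 0.0416) and -0.73 ± 0.22 (adjusted p = 0.0396) that most alternatives ended.

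Mean levels of the muscle, fibroblast and epithelial marker lists were lowest in the DAZL IPs, as were Tpm2, Acta2 and Flnc by their chosen probes. The mean level of the 9 muscle markers was -0.82 to -0.57 in input, -0.48 to 0.08 in mock IP, -1.30 to -1.22 in anti-V5 IP and -1.47 to -1.41 in anti-GFP IP. The mean of the 6 fibroblast markers was 0.36 to 0.74 in input, 0.59 to 1.42 in mock IP, -0.23 to -0.14 in anti-V5 IP and -0.32 to -0.27 in anti-GFP IP. The 4 tested epithelial markers had mean levels of 6.09 to 6.16 in input, 6.08 to 6.49 in mock IP, 5.79 to 5.89 in anti-V5 IP and 5.65 to 5.86 in anti-GFP IP. Single markers of these lists differed: Myh11 (muscle) and Col3a1 (fibroblast) lay above input in both DAZL IPs, and Cdh1 (epithelial) was highest in them. The mean of the 10 germ cell markers was highest in both DAZL IPs, where Pfn2 and Cfl2 were also highest. It was 1.92 to 2.06 in input, 1.46 to 1.61 in mock IP, 2.46 to 2.91 in anti-V5 IP and 2.55 to 2.91 in anti-GFP IP. Against mock IP, 5 of the 10 were called higher and 2 lower in each DAZL IP. Pou5f1, Ifitm3 and Nanos3 were lowest in the DAZL IPs, and Ddx4 was highest in input on both slides. The list also holds Dazl, which the cells expressed in tagged form. The 2 tested neural markers lay at 0.60 to 0.84 in input and between 1.24 and 1.93 in the 3 IP groups. The part of these markers in the results for the members was not tested.

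Between anti-V5 IP and anti-GFP IP no member was called, and 0% of all genes were (limma; 190 genes and 0 members had an unadjusted p under 0.05). The differences of the members lay between -0.29 and 0.38 on the log2 scale. With 2 arrays a group, this does not show that the antibodies recovered these RNAs alike.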

How the data were processed

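Per the file headers, the deposited intensities are Agilent Feature Extraction 9.1.3.1 output, background-subtracted and detrended. The authors also deposited a table of median-normalized signals (GeneSifter, per its header); its quality score, per the file headers a spot score, served only to match it: 45018 of 45018 entries matched 1 spot (tolerance 1e-05). Main values are log2 intensities from which the 75th percentile of the array's gene probes was subtracted. Spots were averaged without outliers. Probes well above background on both arrays of a group were kept (28104 of 41174), and a gene was represented by its brightest kept probe. Fits used limma 3.58.1 (R 4.3.3, lmFit, eBayes, two-sided, all 8 arrays) with Benjamini-Hochberg adjustment over 19181 genes. They were run on simulated data with independent noise on each array, which does not cover correlation between arrays of a slide. The mock IP against input difference has no test.

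The members and lists were chosen with earlier results of these data known. Per-array values are given for Dbn1 and Myh14, the 6 largest and 6 smallest differences between mock IP and input, and the 5 largest and 5 smallest calls of each comparison; Gsn, Actb and other members, and genes outside the list, were named after their values were seen. Slide 1 held each group's replicate 1 and slide 2 its replicate 2, scanned apart, so the numbers pair arrays by slide; deviations of same-numbered arrays correlated at 0.30 to 0.78 over genes. No file used here names a genome build; no coordinates are printed. Alternatives were normexp (offset 50), quantile normalization, median centring, the deposited table (log2 of signal plus 0.1), other probe filters, averaged probes, only the groups compared, the replicate block and single arrays left out; counting the 3 older-named members was chosen after seeing the data.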

Additional observations from a re-analysis of the deposited data

How the results depend on the processing

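Of the single-member results under the other settings, 2774 kept their side of the threshold, 319 lost the call and 52 gained it. Of the calls, 0 turned into a call in the opposite direction. Some uncalled differences changed sign, such as Cald1 in anti-GFP IP against mock IP (0.25 in the main setting, -0.28 with averaged probes). With the slide as a replicate block, calls against mock IP were 3 higher and 22 lower in anti-V5 IP (19.4% and 38.2% of all genes). In anti-GFP IP they were 4 and 23 (20.9% and 40% of all genes). Against input they were 16 and 7 in anti-V5 IP (20.4% and 24% of all genes). In anti-GFP IP they were 15 and 6 against input (22% and 26.7% of all genes). No member count moved by more than 1.5 times, and calls rose over all genes as well. Lower calls in anti-V5 IP against mock IP were 3 with normexp (10 over all genes), 8 with median centring (1508), 8 with the deposited table (1509), 6 with no filter on dim probes (964) and 5 with only the groups compared (371), against 16 (4069) in the main setting. In anti-GFP IP against mock IP, normexp gave 2 higher and 8 lower calls (1148 and 398 over all genes), and higher calls were 2 with no filter (2567) and 2 with only the groups compared (2742). Against input, normexp gave 1 lower call in anti-V5 IP (327) and 2 in anti-GFP IP (467). Members at least 2-fold lower in mock IP than input were 2 with quantile normalization and 2 with the deposited table.

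The members' median relative to all genes moved with normexp to -0.32 (anti-V5 IP) and -1.03 (anti-GFP IP) against mock IP, 0.97 (anti-V5 IP) against input and 0.87 (mock IP against input). Quantile normalization gave -0.55 (anti-V5 IP against mock IP) and 0.43 (anti-GFP IP against input), no filter gave -0.35 and 0.56 for the same comparisons, and averaged probes gave 0.44 (anti-V5 IP against input). The main values were -0.43, -0.59, 0.62, 0.77 and 0.54. Normexp shifted the median of all genes to -0.01 in anti-GFP IP against mock IP, from -0.43. The cause of these moves was not tested.

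Leaving out 1 array at a time gave 0 to 3 higher and 2 to 14 lower calls in anti-V5 IP against mock IP, 2 to 4 and 4 to 19 in anti-GFP IP, 8 to 13 and 1 to 5 in anti-V5 IP against input, 8 to 14 and 1 to 5 in anti-GFP IP, 0 to 0 between the IPs, and 15 to 16 members at least 2-fold higher and 0 to 1 lower in mock IP against input. A lone array was assumed to vary like the other groups. The relative medians ranged from -0.51 to -0.20, -0.59 to -0.40, 0.62 to 0.86, 0.45 to 0.87 and 0.31 to 0.83 in the order of comparisons above, the last being mock IP against input. The number of arrays limits the precision; the 37 members were well above background on all 8 arrays.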

Other observations

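Some cytoskeleton genes outside the list also differed in mock IP from input. The dynein heavy chain Dync1h1 lay 1.84 above input in mock IP on the log2 scale, and -1.60 and -1.69 from mock IP in anti-V5 IP and anti-GFP IP. Mock 1 carried these values: without it they were 0.61, -0.37 and -0.46. Its partner subunits Dctn1, Dctn2 and Dctn3 of dynactin lay at 0.59, -0.12 and -0.07 relative to input. Rock1 and Rock2, kinases that act on myosin II, lay at -3.61 and -1.98, and at -2.41 and -0.79 without mock 1. Dctn1 lay at 0.26 without mock 1. The junction genes Cdh1 (E-cadherin) and Ctnnb1 (beta-catenin) lay 1.60 and 1.28 above mock IP in anti-V5 IP and 1.78 and 1.36 above it in anti-GFP IP, whereas the keratins Krt8, Krt18 and Krt19 lay between -1.32 and -1.11. These genes were chosen after their values were seen, and no test is attached to them here.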
